A study of Mus musculus with 2 samples.

Results

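Promoters of long noncoding RNA (lncRNA) genes were examined in the chromatin accessibility data of the neonatal mouse organ of Corti, the sensory epithelium of the cochlea. A promoter belonged to the set when a transcription start site (TSS) of a GENCODE vM21 gene of type lincRNA, antisense or lncRNA lay more than 3 kb from every TSS of a protein-coding transcript. This selected 9723 of 12194 lncRNA TSSs, which belonged to 7184 of 8813 lncRNA genes. Of these genes, 5350 were lincRNA genes and 1834 were antisense genes, and no gene in the annotation had the type lncRNA. The remaining 1761 genes with a TSS closer to a protein-coding gene, among them 132 genes that also had a TSS in the set, served as a comparison, as did 21888 protein-coding genes.

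The data are ATAC-seq peak lists, in which the transposase Tn5 cuts open chromatin and the peak caller marks where cuts pile up. Organs of Corti were dissected at P2 from WT mice and from Bmi1-/- littermates, here called Bmi1 KO, of the line FVB.129P2-Bmi1tm1Brn/MvlJ backcrossed to C57BL/6J. Bmi1 is a subunit of Polycomb repressive complex 1, and the deletion is in the germline, so that all cells of the mice carry it. Cochleae of several mice were pooled for each genotype into 1 library, so there was no replicate, no difference between genotypes was tested, and intervals cover counting error only. All peak names (100%) in the list labelled WT carry a prefix for the knockout, and all names (100%) in the list labelled Bmi1 KO carry a prefix for WT. The lists are therefore called by their labels, and every direction below would turn around if the labels were exchanged. On chromosomes 1 to 19, X and Y there were 77596 peaks labelled WT and 100431 labelled Bmi1 KO, a ratio of 1.29. Bmi1 itself had a promoter peak in both lists, with 17 summit reads labelled WT and 29 labelled Bmi1 KO, which does not check the labels because the sources do not say which part of the gene the allele lacks. Of 15 hair cell markers, 9 had a promoter peak labelled WT and 6 labelled Bmi1 KO. Of 15 supporting cell markers, 9 and 10 did, of 10 mesenchyme markers 6 and 6, of 10 neuron and glia markers 4 and 6, and of 10 blood and macrophage markers 2 and 0. Over all protein-coding genes 45.9% had a promoter peak labelled WT and 58.04% labelled Bmi1 KO. The marker counts were not tested against these shares.

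LncRNA genes are transcribed by RNA polymerase II and their transcripts are often spliced and polyadenylated, but they have no long open reading frame. Some act on neighbouring genes, as at imprinted clusters and on the X chromosome, others build nuclear bodies or carry small nucleolar RNAs or microRNAs in their introns, and many have no known function. In general, lncRNA promoters are less often CpG islands than promoters of protein-coding genes, and their transcripts are often restricted to few cell types.

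The promoters below were chosen for print because they carry the strongest peaks in the set or belong to known lncRNAs with peaks in both lists. Each is the window from 250 bp upstream to 50 bp downstream of the most 5′ TSS of the set, read on the strand of the gene from GRCm38.p6. Capitals mark matches on either strand to a GC box (letters GGGCGG), the CCAAT box (named by its letters), the TATA box (letters TATAAA) or the cyclic AMP response element (letters TGACGTCA), and matches that run into each other are capitalised as 1 run. The first 3 belong to 4932412D23Rik (chr16:42875713-42876012, minus strand), Gm20732 (chr15:68363127-68363426, minus strand) and 6720427I07Rik (chr13:48546451-48546750, minus strand), lincRNA genes with CpG-rich promoters and with peaks of both lists over the window.
4932412D23Rik: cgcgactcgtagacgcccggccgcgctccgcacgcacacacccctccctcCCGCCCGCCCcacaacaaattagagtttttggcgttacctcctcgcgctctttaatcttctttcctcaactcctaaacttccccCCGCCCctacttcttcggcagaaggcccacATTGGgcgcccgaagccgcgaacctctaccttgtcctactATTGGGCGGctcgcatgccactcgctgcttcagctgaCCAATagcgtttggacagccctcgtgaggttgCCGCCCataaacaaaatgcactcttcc
Gm20732: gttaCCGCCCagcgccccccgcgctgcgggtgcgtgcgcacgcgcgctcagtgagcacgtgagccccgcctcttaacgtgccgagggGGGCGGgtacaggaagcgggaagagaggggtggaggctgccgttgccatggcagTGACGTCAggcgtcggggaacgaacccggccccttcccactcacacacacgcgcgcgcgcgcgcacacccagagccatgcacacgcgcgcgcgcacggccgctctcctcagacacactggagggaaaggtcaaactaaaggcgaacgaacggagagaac
6720427I07Rik: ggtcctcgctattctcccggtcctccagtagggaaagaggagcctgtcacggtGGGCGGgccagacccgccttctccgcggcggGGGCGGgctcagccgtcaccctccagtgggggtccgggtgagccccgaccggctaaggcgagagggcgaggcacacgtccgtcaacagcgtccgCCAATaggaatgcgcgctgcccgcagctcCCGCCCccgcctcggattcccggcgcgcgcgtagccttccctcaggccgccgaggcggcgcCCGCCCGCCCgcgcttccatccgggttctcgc

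The next 3 belong to Kcnq1ot1 (chr7:143296500-143296799, minus strand), H19 (chr7:142578094-142578393, minus strand) and Snhg12 (chr4:132308373-132308672, plus strand), and peaks of both lists overlap each of these windows.
Kcnq1ot1: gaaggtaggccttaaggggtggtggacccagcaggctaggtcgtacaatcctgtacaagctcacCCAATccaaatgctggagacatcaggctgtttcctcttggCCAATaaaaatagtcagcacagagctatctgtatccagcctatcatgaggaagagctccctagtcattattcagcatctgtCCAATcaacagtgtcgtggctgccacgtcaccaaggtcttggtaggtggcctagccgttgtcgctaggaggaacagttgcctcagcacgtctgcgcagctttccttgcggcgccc
H19: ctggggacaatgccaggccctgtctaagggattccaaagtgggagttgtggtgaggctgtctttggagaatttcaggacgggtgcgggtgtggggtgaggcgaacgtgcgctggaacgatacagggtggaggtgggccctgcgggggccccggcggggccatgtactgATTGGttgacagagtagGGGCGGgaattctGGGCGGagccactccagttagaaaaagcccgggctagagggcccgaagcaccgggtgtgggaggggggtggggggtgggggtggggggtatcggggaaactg
Snhg12: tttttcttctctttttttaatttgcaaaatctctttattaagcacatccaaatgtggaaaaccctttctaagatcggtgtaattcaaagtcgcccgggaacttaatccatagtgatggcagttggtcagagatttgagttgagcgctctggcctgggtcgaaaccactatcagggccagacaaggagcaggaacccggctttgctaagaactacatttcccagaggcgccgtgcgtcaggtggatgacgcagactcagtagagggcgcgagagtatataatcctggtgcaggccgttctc

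The last belongs to Gm11399 (chr11:3141798-3142097, plus strand), the gene with the strongest peak labelled WT by p-value, whose peak lies downstream of this window.
Gm11399: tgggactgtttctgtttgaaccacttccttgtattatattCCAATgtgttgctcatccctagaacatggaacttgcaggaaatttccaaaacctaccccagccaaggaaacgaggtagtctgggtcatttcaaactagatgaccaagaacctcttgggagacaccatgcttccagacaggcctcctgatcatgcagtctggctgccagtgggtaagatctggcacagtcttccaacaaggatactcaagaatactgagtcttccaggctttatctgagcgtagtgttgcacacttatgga

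The 3 CpG-rich windows hold 26, 39 and 40 CpG dinucleotides in the order printed. Kcnq1ot1 has 9, H19 has 15, Snhg12 has 13 and Gm11399 has 2. The windows of 4932412D23Rik and 6720427I07Rik each hold 5 GC boxes, that of Gm20732 holds 2 GC boxes and the cyclic AMP response element, and that of Kcnq1ot1 holds 3 CCAAT boxes. None of the 4 motifs occurs in the window of Snhg12.

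Few lncRNA promoters were accessible in either list. A promoter peak, with its centre within 1 kb of a TSS, was called for 849 of the 7184 genes labelled WT (11.8%, exact binomial 95% interval 11.1 to 12.6) and for 1133 labelled Bmi1 KO (15.8%, 14.9 to 16.6). Among all 55413 annotated genes the shares were 26.6% labelled WT and 33.3% labelled Bmi1 KO. Among protein-coding genes they were 45.9% and 58.04%, and among the lncRNA genes with a TSS within 3 kb of a protein-coding TSS they were 43.6% and 59.2%. The latter therefore had peaks about as often as protein-coding genes, and the distant promoters did so far less often. Protein-coding genes have more TSSs, but the gap was also present between genes with 1 TSS, at 10.8% and 14.1% of 5642 lncRNA genes against 34.4% and 46.2% of 8270 protein-coding genes.

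The peaks gathered at the TSS, but weakly. The profile of peaks around the TSS left out, for lncRNA genes, peaks centred within 3 kb of a protein-coding TSS. For protein-coding genes it counted all peaks. Around the most 5′ TSS of each lncRNA gene, peaks were 1.72 times as dense within 1 kb as at 4 to 5 kb in the list labelled WT and 1.91 times in the list labelled Bmi1 KO. For protein-coding genes the same ratios were 5.91 and 7.003. The plot of peak density by distance shows that away from the TSS both kinds of gene had a similar density. Leaving out peaks can only lower the lncRNA density, by an amount that was not measured. Peaks at protein-coding promoters can lie 4 to 5 kb from a TSS of the set but not within 1 kb. Their removal may therefore raise the lncRNA ratios, which was not measured either. Per kb and 1000 TSSs, lncRNA genes had 34.5 peaks at 4 to 5 kb labelled WT and protein-coding genes had 41.4, whereas within 1 kb the values were 59.1 and 244.9. Most of the difference between the kinds of gene was thus within 1 kb of the TSS. The strongest peak of a gene was centred upstream of the TSS for 49.5% of the genes labelled WT (46.1 to 52.9) and for 47.5% labelled Bmi1 KO (44.5 to 50.4).

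**Figure D1:**
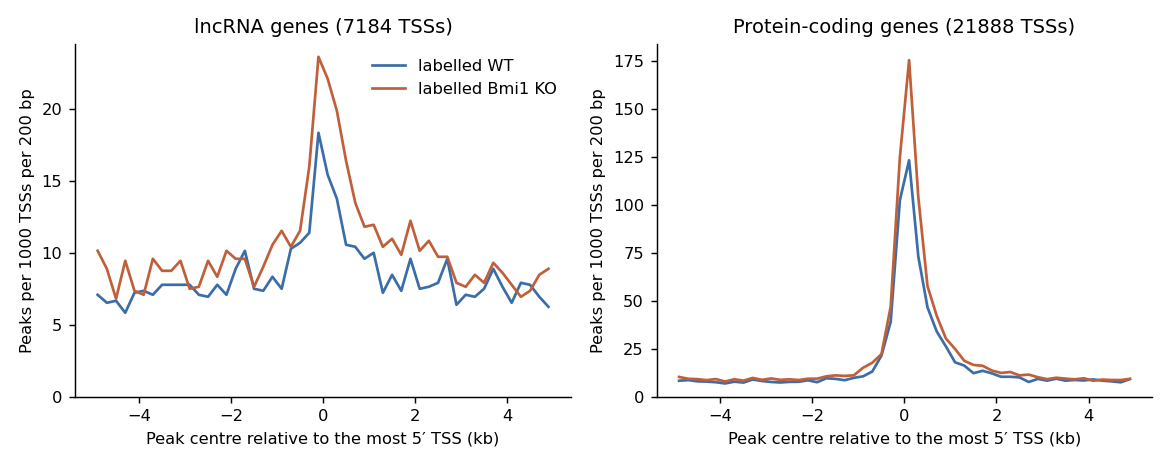
Number of peaks per 1000 TSSs in bins of 200 bp against the distance of the peak centre from the most 5′ TSS (kb, negative upstream), for lncRNA genes (left) and protein-coding genes (right), with 1 line per list and different vertical scales. For lncRNA genes, peaks centred within 3 kb of a protein-coding TSS are left out, and for protein-coding genes all peaks are counted. The lncRNA lines rise to a narrow maximum at the TSS, 1.72 times (labelled WT) and 1.91 times (labelled Bmi1 KO) the density at 4 to 5 kb when averaged within 1 kb, against 5.91 and 7.003 times for protein-coding genes.

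LncRNA promoter peaks were also of ordinary strength. Peaks were ranked by −log10 p within their own list, because the scales of the lists differ, and the median lncRNA promoter peak was at percentile 49.7 labelled WT and 48.4 labelled Bmi1 KO. The median protein-coding promoter peak was at percentile 70.8 and 80.8. At a −log10 q of at least 5, only 15 lncRNA genes labelled WT (0.209%) and 40 labelled Bmi1 KO (0.557%) had a promoter peak, against 849 (3.88%) and 3659 (16.7%) protein-coding genes. Of the 45 lncRNA genes with such a peak in either list, 35 had a promoter peak in both lists and 26 had a CpG-rich promoter. Over all lncRNA genes 4.77% had a peak in both lists and 2.32% were CpG-rich, as defined below. Most of these genes had no peak at all. Among the 1639 lncRNA genes with a peak of any strength in either list, 343 had one in both. CpG-rich promoters made up 18.7% of the genes with a peak in both lists and 4.01% of those with a peak in 1. The median distance of these 45 genes from a protein-coding TSS was 33.1 kb, compared with 59055 bp over all TSSs of the set.

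LncRNA promoters with and without a peak differed in base composition. A promoter was called CpG-rich when the 500 bp to each side of the TSS had at least 50% GC and an observed over expected CpG ratio of at least 0.6. Only 167 lncRNA genes (2.32%) were CpG-rich, against 45.0% of protein-coding genes. Of these 167 genes, 73 had a promoter peak labelled WT (43.7%, 36.1 to 51.6) and 107 labelled Bmi1 KO (64.1%, 56.3 to 71.3). Of the 7017 CpG-poor genes, 11.1% (10.3 to 11.8) and 14.6% (13.8 to 15.5) did. CpG-rich lncRNA promoters had a higher share in both lists, with intervals that do not meet those of the CpG-poor ones. Within the same class, lncRNA promoters still had peaks less often than protein-coding ones, which had them at 71.5% and 87.9% when CpG-rich and at 24.9% and 33.6% when CpG-poor.

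The share also fell with repeats and with distance from protein-coding genes. A TSS base in a repeat, soft-masked in the reference sequence, was found for 26.6% of lncRNA genes and 9.64% of protein-coding genes. Among lncRNA genes with a TSS in a repeat, 6.84% had a promoter peak labelled WT and 8.20% labelled Bmi1 KO, compared with 13.6% and 18.5% outside repeats. Genes 5 to 10 kb from a protein-coding TSS had promoter peaks at 16.4% and 22.3%, those at 50 to 200 kb at 11.02% and 14.7%, and those over 200 kb away at 5.45% and 7.93%. Genes 3 to 5 kb away (16.2% and 18.5%, n = 314) did not differ from those at 5 to 10 kb beyond their intervals. How mappability differs between these classes was not measured over all promoters.

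**Figure D2:**
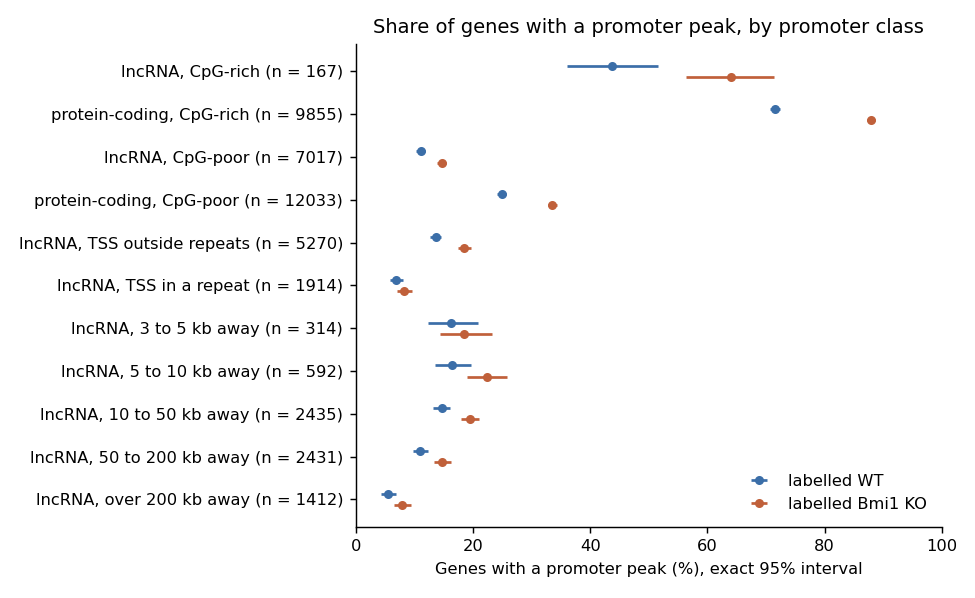
Percentage of genes with a promoter peak in each list, with exact binomial 95% intervals, for lncRNA and protein-coding genes by CpG class and for lncRNA genes by repeat and by distance of the TSS from the nearest protein-coding TSS. CpG-rich lncRNA genes stand at 43.7% (labelled WT) and 64.1% (labelled Bmi1 KO), below CpG-rich protein-coding genes and above all other lncRNA classes shown.

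Motif content followed the same lines. A GC box, bound by Sp1 and related factors, was present on either strand in the 300 bp promoter window of 25.7% of the 343 lncRNA genes with peaks in both lists, of 13.3% of the 1296 genes with a peak in 1 list and of 6.40% of the 5545 genes without one. Over all lncRNA promoters the share was 8.56% and over all protein-coding promoters 43.8%. A TATA box ran the other way, at 9.04%, 11.7% and 16.9% of these lncRNA classes, with 15.6% over all lncRNA and 12.7% over all protein-coding promoters. The CCAAT box was at 33.2%, 34.6% and 42.0%, with 40.3% over all lncRNA and 39.0% over all protein-coding promoters. The cyclic AMP response element was at 2.92%, 0.849% and 0.577%, with 0.738% and 2.45% over all. Median GC within 500 bp of the TSS was 52.2%, 49.1% and 44.6% in the same 3 lncRNA classes, and the part of base composition in these shares was not tested. A match describes letters in the window and is not a binding site.

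Differences by gene type were smaller. Antisense genes had a promoter peak at 14.4% labelled WT and 17.6% labelled Bmi1 KO, and lincRNA genes at 10.9% and 15.1%. The share was 36.1% and 43.5% for the 108 genes with 5 or more TSSs in the set, each of which offers more places for a peak. On the X chromosome 5 of 118 genes had a peak labelled WT (4.24%) and 7 labelled Bmi1 KO (5.93%), below the autosomes at 12.95% and 17.3%. Protein-coding genes were also lower there, at 13.8% and 25.5% against 47.8% and 60.04% on the autosomes. The lists held 487 and 724 peaks on the whole X chromosome. On the Y chromosome 0 of 549 lncRNA genes had a peak in either list, which allows a share of up to 0.546% (3 of 549). Of 183 protein-coding genes there, 0 had one in either list. The lists held 17 and 24 peaks on the whole of that chromosome.

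The genotypes were compared next, to ask whether lncRNA promoters had called peaks more often in the list labelled Bmi1 KO. There were 923 lncRNA promoter peaks labelled WT and 1249 labelled Bmi1 KO, a ratio of 1.35 (exact conditional 95% interval 1.24 to 1.47). The ratio was 1.31 (1.28 to 1.34) for protein-coding promoter peaks and 1.29 for all peaks, so the number of lncRNA promoter peaks grew about as much as the list did. When the 77596 strongest peaks were taken from each list, the ratio was 1.06 (0.971 to 1.17) and did not differ from 1 beyond counting error. These intervals treat the numbers of peaks in the lists as independent, although some peaks of the lists overlap.

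By gene, 343 lncRNA genes (4.77%) were marked by a promoter peak of both genotypes, 506 (7.04%) only in the list labelled WT and 790 (10.997%) only in the list labelled Bmi1 KO, where a peak of the other list centred outside the window does not count. Over all annotated genes 21.2% had a peak in both, 5.40% only in the list labelled WT and 12.1% only in the list labelled Bmi1 KO. LncRNA genes with peaks were thus mostly marked in 1 list, whereas 8821 of 13931 protein-coding genes with peaks were marked in both. Of the 1639 lncRNA genes with a peak in either list, 59.5% (57.1 to 61.9) had the higher-ranked peak in the list labelled Bmi1 KO, with a missing peak ranked lowest. This was below the 68.3% over all annotated genes with a peak and the 71.6% (70.9 to 72.4) of protein-coding genes, and with equally long lists it was 52.6% (49.96 to 55.1).

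The genes marked in 1 list were then split by promoter class. Among CpG-rich lncRNA genes 43 had a peak only in that list and 9 only in the list labelled WT, a ratio of 4.78 (2.30 to 11.1). Among CpG-poor genes the numbers were 747 and 497, a ratio of 1.503 (1.34 to 1.69). With equally long lists, an alternative chosen after the data were seen, the CpG-rich genes kept 38 against 13, a ratio of 2.92 (1.52 to 5.98), and the CpG-poor genes had 582 against 550, a ratio of 1.06 (0.940 to 1.19). Counted over all genes with a peak, marked in both lists or in 1, the ratio at equal list length was 98 over 73, or 1.34, for CpG-rich lncRNA genes. For CpG-poor ones it was 1.04. No interval is given for these ratios, because a gene marked in both lists enters both counts. The genes of a class come from 1 library per genotype and are not replicates. At equal list length, protein-coding genes marked in 1 list only had a ratio of 3.58 (3.25 to 3.96) when CpG-rich. When CpG-poor it was 1.57 (1.45 to 1.70). Counted over all protein-coding genes with a peak, the ratios at equal list length were 1.19 when CpG-rich and 1.19 when CpG-poor, again without an interval. The difference between the libraries in depth or in the share of cuts at CpG-rich promoters cannot be told apart from the genotype.

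Most lncRNA promoter peaks had no counterpart in the other list. Of the peaks labelled WT 235 of 923 (25.5%, 22.7 to 28.4) overlapped a peak labelled Bmi1 KO by at least 1 bp, and of those labelled Bmi1 KO 226 of 1249 did (18.1%, 15.997 to 20.3). These shares were those of all peaks, at 24.8% and 18.5%, and lay far below protein-coding promoter peaks, at 71.4% and 51.0%. Overlapping peaks of both lists were found at 216 lncRNA genes, 3.01% of the set. For 199 of the 343 genes with peaks in both lists the strongest peaks themselves overlapped. Of these 199 genes, 118 had the higher percentile in the list labelled Bmi1 KO (59.3%, 52.1 to 66.2), compared with 70.2% of 6894 protein-coding genes with overlapping strongest peaks.

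**Figure D3:**
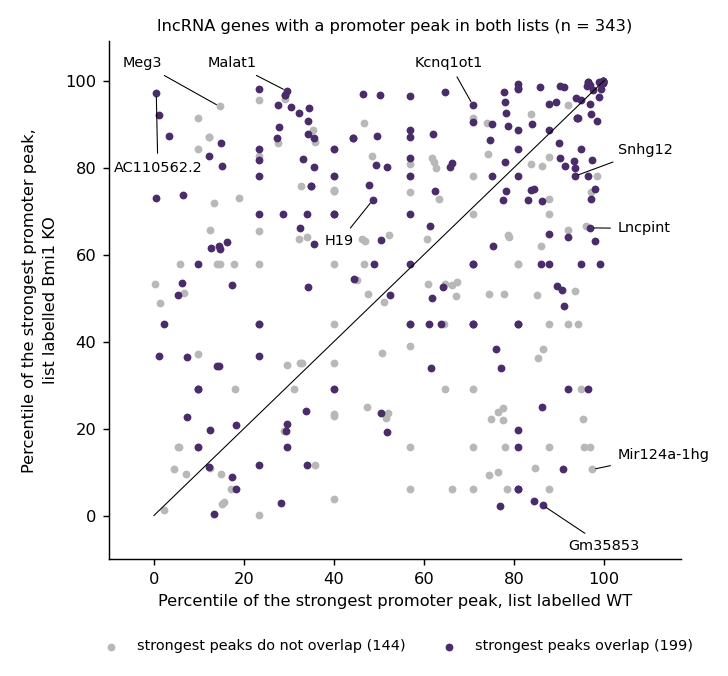
Percentile of the strongest promoter peak of a gene within the list labelled WT (horizontal) and within the list labelled Bmi1 KO (vertical) for the 343 lncRNA genes with a peak in both, with 1 point per gene, dark where the 2 strongest peaks overlap (199 genes) and grey elsewhere, and the line of equal percentiles. The points fill the plane, and 185 of the 343 genes had the higher percentile in the list labelled Bmi1 KO.

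The strongest lncRNA promoter peaks were mostly found in both lists, as were the strongest peaks of any kind. In the strongest hundredth of their list, 9 of 10 lncRNA promoter peaks labelled WT and 11 of 11 labelled Bmi1 KO overlapped the other list. Over all peaks in that hundredth 95.1% and 97.4% did. For the strongest peak of each lncRNA gene, summit reads and local background were recovered from the fold enrichment and p-value as deposited. The commonest background was 6.32 reads labelled WT and 8.04 labelled Bmi1 KO. The median summit of a lncRNA gene held 19 reads labelled WT and 22 labelled Bmi1 KO, so most peaks rest on few reads.

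4932412D23Rik, a lincRNA gene 31.9 kb from Zbtb20, had 37 summit reads labelled WT (exact Poisson 95% interval 26.1 to 51.0) over a background of 6.78, and 60 labelled Bmi1 KO (45.8 to 77.2) over 11.2. The peaks were at chr16:42875349-42876372 and chr16:42874942-42876426, at percentiles 99.7 and 99.8. Their fold enrichments over the local background were 4.88 and 5.02. The summit rose with the background, and the enrichments were close.

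6720427I07Rik, a lincRNA gene with 5 GC boxes in the window above, had 41 summit reads labelled WT (29.4 to 55.6) and 54 labelled Bmi1 KO (40.6 to 70.5), with fold enrichments of 4.97 and 4.63. Gm20732, a lincRNA gene 104.3 kb from Zfat, had 29 (19.4 to 41.6) and 53 (39.7 to 69.3), with fold enrichments of 3.84 and 5.0. The latter had the larger rise in enrichment of the 3 CpG-rich genes printed above. AC166748.2, a CpG-poor lincRNA gene on chromosome 19, had 36 reads labelled WT and 41 labelled Bmi1 KO at chr19:8252012-8252583 and chr19:8252139-8252628. Its p-value in the list labelled WT was tied with that of Gm15287, an antisense gene on chromosome 13 named after its values were seen, whose summits held the same numbers of reads.

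The 3 genes with the strongest peaks by p-value in the list labelled WT lie in sequence that is repeated or has an unusual background. The peaks of Gm11399, antisense to a protein-coding gene, were at chr11:3142477-3142809 labelled WT and chr11:3142483-3142801 labelled Bmi1 KO, with 50 and 56 summit reads. Of the 31-base words of these peaks 89.8% and 89.3% occurred more than once in GRCm38.p6. AY036118 and Gm26917 are neighbours on chromosome 17, where the RefSeq annotation of this build places the ribosomal RNA pseudogene Rn18s-rs5 at chr17:39846354-39848202. Their summits held 261 and 266 reads labelled WT and 285 and 290 labelled Bmi1 KO, over backgrounds of 124.1 and 128.7 and of 139.0 and 135.0 reads. Their fold enrichments were low, between 2.04 and 2.14. The peaks of Gm26917 were the widest of the set, at 4033 and 4196 bp, and the next widest labelled Bmi1 KO were those of Gm6410 at 1795 bp and of 4932412D23Rik at 1485 bp. No other lncRNA gene had a strongest peak over a background of more than 50 reads, and the part of multiply mapped reads in these peaks was not tested.

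Repeated sequence was uncommon among the other peaks. More than 50% of the words were repeated in 17 of 923 lncRNA promoter peaks labelled WT (1.84%) and 25 of 1249 labelled Bmi1 KO (2.002%), compared with 0.590% and 0.451% of a sample of protein-coding promoter peaks. Among lncRNA promoter peaks in the strongest hundredth of the list they were 3 of 10 labelled WT and 1 of 11 labelled Bmi1 KO.

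The strongest peaks without an overlap in the other list held between 25 and 29 summit reads labelled WT and between 31 and 36 labelled Bmi1 KO. In the list labelled WT they were those of Gm21847 with 29 reads, Gm12272 with 28, Gm15726 with 27, and C230035I16Rik and Gm16145 with 25 each. The peak of Gm21847 consisted of repeated words at 78.2% and that of Gm15726 at 42.2%. In the list labelled Bmi1 KO they were those of Epb41l4aos with 36 reads, A330094K24Rik and Gm15247 with 34 each, and Gm26691 and Gm47865 with 31 each. Repeated words made up 73.0% of the peak of Gm15247. Gm15247 and Gm15726 are neighbouring antisense genes near Mid1 on the X chromosome, each marked in 1 list only.

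Among overlapping peaks, the largest gain in percentile was that of AC110562.2, from 16 summit reads at percentile 0.520 labelled WT to 40 at percentile 97.1 labelled Bmi1 KO. Next were 2610035D17Rik, with 16 and 31 reads, and Gm36445, with 16 and 30. The largest losses were those of Gm35853, from 23 reads at percentile 86.4 to 19 at percentile 2.37, and of Gm12542, with 22 and 21 reads, and Gm30373, with 26 and 22. The losses thus came with nearly the same number of reads over a higher background, at 7.38 labelled WT and 9.88 labelled Bmi1 KO for Gm35853. Intervals of the reads overlap in all 3 losses. For AC110562.2 the intervals, 9.15 to 26.0 labelled WT and 28.6 to 54.5 labelled Bmi1 KO, did not overlap, although this gene was chosen for its difference. These intervals are of reads as counted and are not scaled for depth. The commonest background was 1.27 times as high in the list labelled Bmi1 KO. The local background of AC110562.2 was also higher in that list, and its fold enrichments were 1.89 labelled WT and 3.05 labelled Bmi1 KO. Whether its gain exceeds the difference in depth was not tested. By number of peaks, C030014I23Rik, Gm37494 and Gm43391 were among the highest, each with 5 promoter peaks over both lists.

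Known lncRNAs were taken from lists of 114 genes, of which 41 had a TSS in the set. Promoter peaks of both genotypes marked 13 of these, a peak labelled WT alone marked 2, a peak labelled Bmi1 KO alone marked 11, and 15 had none. Over all lncRNA genes 4.77% had peaks in both, 7.04% only labelled WT, 10.997% only labelled Bmi1 KO and 77.2% in neither. The others were not in the annotation under the name used, had another gene type or had every TSS within 3 kb of a protein-coding TSS. The 41 genes had a median of 4 TSSs in the set, compared with 1 over all lncRNA genes, and genes with 5 or more TSSs had peaks at 36.1% labelled WT and 43.5% labelled Bmi1 KO, so these counts are not those of genes with equal numbers of places for a peak. Peaks of both lists overlapped at 9 of the 41 genes, compared with 3.01% of all lncRNA genes. The 300 bp window at the most 5′ TSS held no peak of either list for several genes named below with peaks. These included Malat1, Miat, Lncpint, Neat1, Meg3, Mirg, Snhg20, Pvt1, Mir124a-1hg, Mir124-2hg, Pantr1 and Tbx3os1.

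Malat1, an abundant lncRNA of nuclear speckles, had a peak upstream of a TSS in both lists, at chr19:5803240-5803478 and chr19:5803058-5803868. The summit held 18 reads labelled WT (10.7 to 28.4, background 7.32) and 37 labelled Bmi1 KO (26.1 to 51.0, background 10.3), at percentiles 29.5 and 97.6. The intervals of the reads overlapped. Neat1, the scaffold of paraspeckles, had a peak only in the list labelled WT, with 18 reads at chr19:5827327-5827549. This is at a TSS other than the most 5′ one, whose 300 bp window held no peak of either list. Lncpint, a lncRNA induced by p53, had overlapping peaks with 26 and 24 reads, and Miat, known from the nervous system, had a peak only in the list labelled Bmi1 KO, with 24. Of the 5 genes on the list of nuclear architecture and housekeeping lncRNAs, each had a peak in at least 1 list and 3 had overlapping peaks. Over all lncRNA genes 22.8% had a peak in either list and 3.01% had overlapping peaks. The 5 genes had a median of 4 TSSs in the set.

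Imprinted lncRNAs are transcribed from 1 parental allele, so that their promoters are open on 1 chromosome and methylated on the other. Kcnq1ot1, which silences genes in cis around Kcnq1, had 19 summit reads labelled WT and 29 labelled Bmi1 KO in overlapping peaks at chr7:143296222-143296593 and chr7:143296458-143296943, over the window with 3 CCAAT boxes printed above. H19, transcribed from the maternal allele, had 22 and 27 reads in overlapping peaks at chr7:142578071-142578561 and chr7:142578162-142578404. Meg3 had 17 and 32 reads in peaks that did not overlap, and neither list had a peak in the 300 bp window at its most 5′ TSS. Airn, which silences Igf2r, had 19 reads at chr17:12816110-12816396 labelled WT and 24 at chr17:12741279-12741516 labelled Bmi1 KO, which are at different TSSs and do not compare 1 promoter. Mirg, a microRNA host in the same cluster as Meg3, had a peak only in the list labelled WT, with 16 reads. All 5 imprinted lncRNAs in the set had a promoter peak labelled WT and 4 had one labelled Bmi1 KO, with a median of 7 TSSs per gene, compared with 11.8% and 15.8% of all lncRNA genes.

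Host genes of small RNAs release snoRNAs or microRNAs from their transcripts. Of 4 snoRNA host genes, 3 had overlapping peaks in both lists and 1, Epb41l4aos, had a peak only in the list labelled Bmi1 KO. Overlapping peaks were found at 3.01% of all lncRNA genes, and these 4 hosts had a median of 6 TSSs in the set. Snhg12 had 23 summit reads in both lists, Snhg20 had 18 labelled WT and 27 labelled Bmi1 KO, and Snhg6 had 16 and 23. Of 13 microRNA host genes, 5 had a peak labelled WT and 10 labelled Bmi1 KO, against 11.8% and 15.8% of all lncRNA genes, and these hosts had a median of 7 TSSs in the set. Mir17hg, host of the miR-17-92 cluster that promotes proliferation, had 28 reads and a peak only in the list labelled Bmi1 KO, as had Pvt1, a neighbour of Myc, with 26. Mir124a-1hg, which gives rise to the neuronal miR-124, had 26 reads labelled WT and 18 labelled Bmi1 KO in peaks that did not overlap, and Mir124-2hg had 27 reads only in the list labelled Bmi1 KO. Where both lists had a peak, the Poisson intervals of the summit reads overlapped at each of these host genes. Mir142hg and Mir133a-1hg had no promoter peak in either list.

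**Figure D4:**
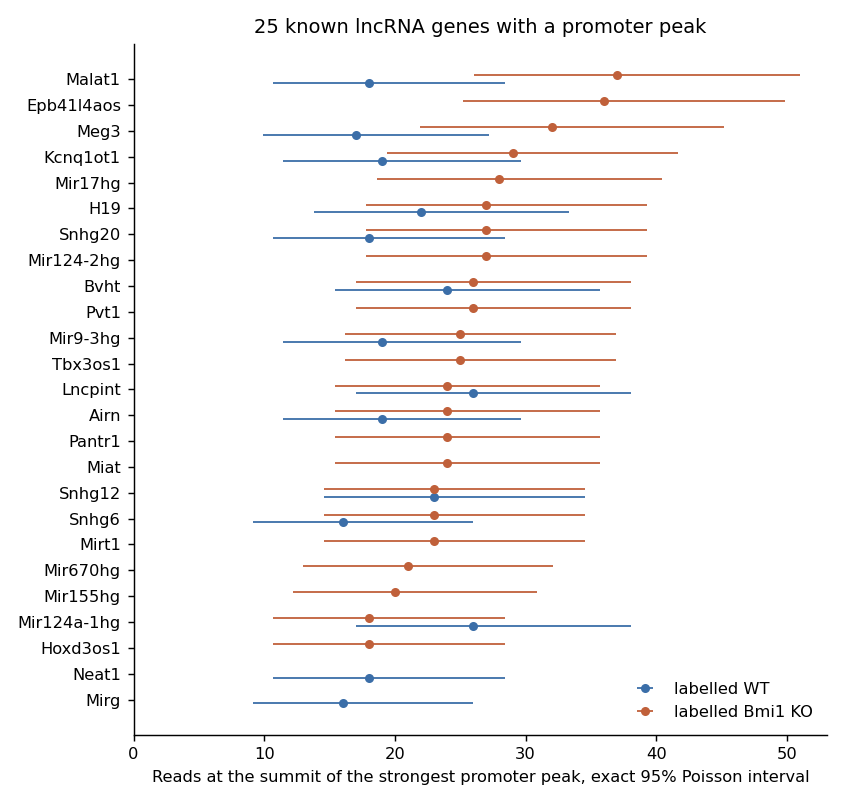
Reads at the summit of the strongest promoter peak in each list, with exact Poisson 95% intervals, for 25 known lncRNA genes with a promoter peak in at least 1 list. Gm26917 is left off because its summits of 266 and 290 reads lie off the scale. A missing point means that no promoter peak was called in that list, and the intervals of both lists overlap wherever both are shown.

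Of 19 developmental and neural lncRNAs, 5 had a peak labelled WT (26.3%, 9.15 to 51.2) and 10 labelled Bmi1 KO (52.6%, 28.9 to 75.6), and 9 had none. Over all lncRNA genes the shares were 11.8%, 15.8% and 77.2%. These 19 genes had a median of 2 TSSs in the set, compared with 1 over all lncRNA genes. The lists share genes, and Meg3, Miat, Mir9-3hg, Mir124a-1hg and Mir124-2hg were already counted on the lists above. Tbx3os1, with 25 summit reads, Pantr1, with 24, and Hoxd3os1, with 18, lie near the transcription factor genes Tbx3, Pou3f3 and Hoxd3 and had peaks only in the list labelled Bmi1 KO. Bvht, known from heart development, had overlapping peaks with 24 and 26 reads. Hotair, Hoxb5os, Hoxaas3, Dlx1as, Dlx6os1, Rmst, Dubr, Wt1os and Zfhx2os had no promoter peak in either list. Gm26917, described above, is 1 of the 5 with a peak labelled WT. The 4 lncRNAs of the X inactivation centre in the set, Xist, Tsix, Ftx and Jpx, had none either, in lists with few peaks on that chromosome.

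LncRNA genes whose nearest protein-coding gene is a regulator of the inner ear were examined last. For 176 lncRNA genes the nearest protein-coding TSS belonged to 1 of 50 regulators on a list of 83 developmental genes. Of these, 23 had a promoter peak labelled WT (13.1%, 8.47 to 18.96) and 35 labelled Bmi1 KO (19.9%, 14.3 to 26.6), with 16 only in the former, 28 only in the latter and 7 in both. The intervals contain the shares of all lncRNA genes, at 11.8% and 15.8%, so no difference from the rest was detectable. Overlapping peaks of both lists were found at 4 of them. They were 1700039E22Rik, 76.0 kb from Pax2, with 23 summit reads labelled WT and 32 labelled Bmi1 KO, 4632428C04Rik, 56.7 kb from Hes1, with 24 and 35, Gm47913, 353.9 kb from Isl1, with 17 and 22, and Gm3235, 172.2 kb from Irx3 and inside another protein-coding gene on the opposite strand, with 24 and 22. Sox2, which marks the prosensory cells, was the nearest protein-coding gene to Gm21388 at 176.3 kb and Gm34599 at 233.9 kb, which had peaks only in the list labelled WT, with 23 and 18 reads. Nr2f1 was nearest to A830082K12Rik and Gm31946. Gm31946, at 227.5 kb, had a peak only in the list labelled Bmi1 KO, with 25 reads. A830082K12Rik, at 3.03 kb, had a promoter peak labelled Bmi1 KO with 36 reads at chr13:78203016-78203814, which overlapped a peak labelled WT whose centre lay outside the window, so that this site was marked in both lists.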

How the data were processed

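Peak lists from ATAC-seq of 2 libraries of the organ of Corti were used, and the genotype given in the labels of each sample defined the groups. Per the study's methods, the authors removed adapters, aligned the reads by BWA-MEM and ran MACS2 on each library. The build, mm10, comes from the submitters' processing notes, and versions and options are not given in the sources used here. In the deposited files the fold enrichment is a ratio of summit pileup to local background, both raised by 1. The p and q of each peak are deposited as −log10 values from MACS2, with q adjusted inside the library. The deposited score was not used, and the other deposited columns give positions. The lists hold no read totals, so depth is known only from the recovered background.

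TSSs came from GENCODE vM21 and sequences from RefSeq GRCm38.p6. Intervals are exact at 95%, and the limit given for a count of 0 is 3 counts of the total. The chosen promoters, the gene lists and the measures were chosen with earlier results of these data known. Genes were named when they were on a list, had one of the 5 strongest promoter peaks of a list, with or without an overlap in the other, one of the 3 largest gains or losses of percentile, or one of the 3 widest peaks or highest peak numbers. GC content, motifs and repeats were taken at the most 5′ TSS of each gene. Repeated 31-base words were counted in every lncRNA promoter peak and in every 10th protein-coding one. The functions were tested on simulated data. Python 3.11.15 with numpy 2.4.6, pandas 2.3.3, scipy 1.17.1 and matplotlib 3.10.9 was used. Alternatives changed the peak threshold, the number of peaks, the window, the overlap, the TSSs and the chromosomes, and 1 comparison by CpG class was added after seeing the data.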

Additional observations from a re-analysis of the deposited data

How the results depend on the processing

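Each list comes from 1 library and most lncRNA promoter summits hold about 20 reads, so that a missing peak says little about a single gene. Under none of the 10 alternatives tried did the ratio of lncRNA promoter peak numbers, labelled Bmi1 KO over labelled WT, fall below 1, or the share of genes ranking higher in the list labelled Bmi1 KO fall below 50%. Only with lists of equal length did the interval of the ratio include 1. No paired analysis was possible because each genotype has 1 library.

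When −log10 q had to reach 1.3, 6.17% of lncRNA genes had a promoter peak labelled WT and 10.2% labelled Bmi1 KO, 282 genes had one only in the list labelled WT, the ratio of peak numbers was 1.62, 64.3% of genes ranked higher labelled Bmi1 KO, and 15.5% of peaks labelled Bmi1 KO overlapped a peak labelled WT. When −log10 q had to reach 5, the shares were 0.209% and 0.557%, 5 genes had a peak only in the list labelled WT and 30 only in the other, the ratio was 2.35, 84.4% ranked higher labelled Bmi1 KO, and 70.6% of peaks labelled WT and 27.5% labelled Bmi1 KO overlapped. With lists of equal length 12.6% of genes had a peak labelled Bmi1 KO, the ratio was 1.06, 52.6% ranked higher labelled Bmi1 KO, and 22.5% of peaks labelled WT overlapped.

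A window of 500 bp gave 7.32% and 10.5% of genes with a peak, 336 genes only labelled WT, 62.3% ranking higher labelled Bmi1 KO, and overlaps of 30.8% and 20.8%. A window of 3 kb gave 25.3% and 30.4%, 878 genes only labelled WT and 1245 only labelled Bmi1 KO, 57.02% ranking higher, and overlaps of 20.98% and 15.7%. A reciprocal overlap of at least 50% left 12.5% and 9.37% of peaks overlapping. With 1 TSS per gene 10.9% and 14.4% of genes had a peak, and without chromosomes X and Y 12.95% and 17.3%. With TSSs of support level 1 alone, which leaves 2729 genes, 16.7% had a peak labelled Bmi1 KO, 181 genes had one only labelled WT and 325 only labelled Bmi1 KO, the ratio was 1.49 and 62.5% ranked higher labelled Bmi1 KO. The smaller counts under stricter thresholds and fewer TSSs follow from their construction, and the cause of the other changes was not tested.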
